A study of Mus musculus with 16 samples.

Results

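The Sall family comprises 4 mouse genes, Sall1, Sall2, Sall3 and Sall4, which are 4 of the 23337 genes counted in 16 RNA-seq libraries of first molar germs. The genes were taken by name, and the family was chosen by its CPM (a gene's counts scaled by the total gene count of its library) across the tooth labels, the labelled stages and the alternating stages described below. Its differences along those 3 axes are therefore given as descriptions, and p-values of the members are printed only where a call turned on a setting of the fit. All 4 genes exceeded the minimum of 0.269 CPM in 16 of 16 libraries and stayed among the 16287 genes that were fitted.

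The study set the germ of the upper first molar against that of the lower first molar, a pair of serial organs, over the stages in which the cusps form. Upper and lower germs had 8 libraries each, 1 per tooth label at intervals of 12 hours between embryonic days E14.5 and E18.0. Both groups were labelled wild type, strain CD1 (an outbred laboratory strain) and male, with no transgene or treatment named. A library held both molars of 1 embryo, left and right combined. Both tooth labels of a stage carried the same individual, numbered 1 to 8 from the earliest stage to the latest.

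Sall proteins are zinc finger transcription factors named after the spalt gene of Drosophila. They act largely as repressors, and a short motif at their amino terminus recruits the NuRD complex, which combines histone deacetylase and nucleosome remodelling activity. SALL1 is mutated in Townes-Brocks syndrome in humans, with defects of the digits, ears and kidneys, and mouse Sall1 is needed for kidney formation. SALL4 is mutated in Duane-radial ray syndrome in humans, sustains pluripotent stem cells, and is degraded through the cereblon ubiquitin ligase in the presence of thalidomide. Sall3 is known from mouse cranial nerves and neurons, and Sall2, the most divergent member, from the developing eye and from growth control.

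Promoter sequences are shown for Sall1 and Sall2, the only members for which promoter windows were at hand. RefSeq's table for GRCm38.p6 was matched by symbol for 2 of the 4 members and lists 3 starts for Sall1 and 2 for Sall2. Each line gives the 250 bases before 1 start on the minus strand, 5′ to 3′, with each CG dinucleotide in capitals. The Sall1 window, chr8:89044163-89044412, ends at the annotated 5′ end of the gene. The Sall2 window, chr14:52316324-52316573, lies before the more 3′ of its 2 listed starts, which is inside the annotated gene. The window of the other Sall2 start is not shown, so the Sall1 and Sall2 windows are not alike in position. The gene counts do not tell which start was in use.
Sall1: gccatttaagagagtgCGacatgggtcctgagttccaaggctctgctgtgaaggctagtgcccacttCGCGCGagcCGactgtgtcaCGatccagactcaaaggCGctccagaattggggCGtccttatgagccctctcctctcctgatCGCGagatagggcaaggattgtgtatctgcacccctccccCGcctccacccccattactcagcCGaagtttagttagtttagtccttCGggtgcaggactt
Sall2: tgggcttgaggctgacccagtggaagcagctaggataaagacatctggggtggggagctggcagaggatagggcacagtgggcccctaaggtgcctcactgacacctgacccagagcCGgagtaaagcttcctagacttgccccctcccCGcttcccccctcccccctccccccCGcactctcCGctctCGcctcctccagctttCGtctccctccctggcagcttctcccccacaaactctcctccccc

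CG reads the same on both strands, and it occurred 13 times in the Sall1 window and 6 times in the Sall2 window. Over 32851 promoter windows of the same length the median was 6, and 68.5% of them held fewer than the Sall1 window and 49.6% fewer than the Sall2 window. GC content was 56.4% for Sall1 and 64.4% for Sall2, against a median of 52.4%. The letters TATAAA, searched on both strands, were in neither window and in 12.4% of all windows. These letter counts describe the windows and say nothing of which factors bind there or of the differences between the labels.

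Batch and label checks bear on every result. The flow cell followed the tooth label and cannot be told apart from it, and within each label the first 4 stages lay on 1 lane and the last 4 on another. Known marker genes did not follow the labels. Pou3f3, which is known from the maxillary part of the first arch, stood at 109.5 to 131.5 CPM at the whole-day stages (E15.0, E16.0, E17.0 and E18.0) and 6.45 to 10.1 CPM at the half-day stages (E14.5, E15.5, E16.5 and E17.5) in upper-labelled libraries. In lower-labelled libraries it measured 60.1 to 86.2 CPM at the whole-day stages and 4.45 to 5.46 CPM at the half-day stages. Nkx2-3, a homeobox gene, ran the other way in both labels, with at most 0.112 CPM at any whole-day stage against 19.2 to 56.2 CPM at half-day stages. Every library was labelled male, yet Xist, a non-coding RNA of the inactive X chromosome, was at 1499 to 1831 CPM under the upper label and at 431.8 to 1928 CPM under the lower label. Of the Y-linked genes, Ddx3y had 2 counts in all, and Eif2s3y, Kdm5d and Uty were at 0 throughout. For these reasons the groups are called by their labels throughout. Total gene counts were 33146758 to 38584429 in upper-labelled libraries and 35918529 to 44565205 in lower-labelled ones. Summed dental epithelium markers (6 of 6 genes) were at 2545 to 4297 CPM in upper-labelled germs and 3066 to 3992 CPM in lower-labelled germs, and dental mesenchyme markers (6 of 6) at 1178 to 1734 CPM in upper-labelled germs and 634.7 to 1345 CPM in lower-labelled germs, so that markers of both tissues of a tooth germ were high in every library.

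Per length, Sall2 was the main Sall transcript in nearly every library. Dividing CPM by the annotated exon length, from 5265 bases for Sall1 to 7481 bases for Sall3, gave a family total of 19.5 to 23.2 CPM per kilobase in upper-labelled germs and 25.0 to 39.9 CPM per kilobase in lower-labelled germs. Sall2 made up 77.8% to 94.9% of that total in upper-labelled germs and 35.4% to 67.7% in lower-labelled germs. Sall3 made up 0.747% to 15.3% in upper-labelled germs and 25.1% to 42.3% in lower-labelled germs. Sall1 contributed 1.35% to 5.56% in upper-labelled germs and 6.10% to 24.9% in lower-labelled germs. Sall4 was a small component, at 1.38% to 3.67% in upper-labelled germs and 0.402% to 1.55% in lower-labelled germs, yet in upper-labelled germs at E14.5 and E15.0 it ranked next after Sall2. Sall3 exceeded Sall2 per kilobase only in lower-labelled germs at E17.5 (15.46 against 13.9 CPM per kilobase) and E18.0 (16.9 against 14.7). The lengths come from GENCODE M21 and may differ from the authors' gene models, not given in the sources used here.

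**Figure D1:**
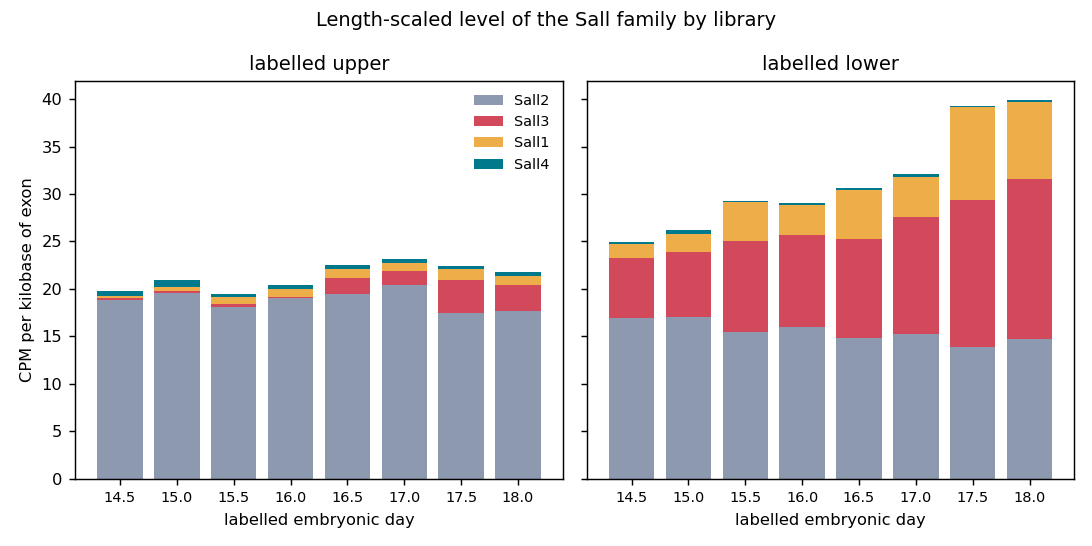
Stacked bars give CPM per kilobase of exon for Sall2, Sall3, Sall1 and Sall4 in each library, by labelled embryonic day, with upper-labelled germs on the left and lower-labelled germs on the right. The totals lie at 19.5 to 23.2 in upper-labelled germs and 25.0 to 39.9 in lower-labelled germs, and the Sall3 and Sall1 segments are larger in lower-labelled germs at every stage.

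Sall3 had the largest difference between the labels. It lies on chromosome 18 at 80966376 to 80986771 (GRCm38). In upper-labelled libraries it measured 1.53, 1.40, 2.05, 1.14, 12.97, 10.9, 25.6 and 20.2 CPM in order of labelled stage. In lower-labelled libraries it measured 46.97, 50.96, 72.2, 72.7, 77.4, 92.0, 115.7 and 126.2 CPM. The highest upper-labelled library stayed below the lowest lower-labelled library, and within upper-labelled germs the first 4 stages stood far below the last 4. Sall3 averaged 9.48 ± 9.58 CPM in upper-labelled germs and 81.8 ± 28.2 CPM in lower-labelled germs (SD, n = 8 each). The fitted log2 difference, upper-labelled germs minus lower-labelled germs, was -3.60 ± 0.39 (SE). It was -5.28 ± 0.18 over the 4 earliest and -2.58 ± 0.18 over the 4 latest labelled stages. Lower-labelled germs exceeded upper-labelled germs 30.7-fold to 63.8-fold in individuals 1 to 4 and 4.51-fold to 8.43-fold in individuals 5 to 8. The lowest upper-labelled library held 42 counts, with an exact 95% Poisson interval of 0.821 to 1.54 CPM that covers counting error only.

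Sall1 differed in the same direction and by less. It lies on chromosome 8 at 89027235 to 89044162. In upper-labelled libraries it measured 1.41, 2.24, 3.94, 4.39, 4.61, 4.35, 6.57 and 5.25 CPM from the earliest labelled stage to the latest. In lower-labelled libraries it measured 8.03, 10.1, 21.3, 16.7, 27.3, 21.8, 51.4 and 42.8 CPM. The labels again did not overlap, and the earliest lower-labelled library was above every upper-labelled one. Sall1 averaged 4.10 ± 1.63 CPM in upper-labelled germs and 24.95 ± 15.2 CPM in lower-labelled germs (SD, n = 8 each), with a fitted log2 difference of -2.52 ± 0.17. Within an individual, lower-labelled germs were 3.80-fold to 8.16-fold above upper-labelled germs. The lowest library, upper-labelled at E14.5, held 48 counts (exact 95% Poisson interval 1.04 to 1.87 CPM).

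Sall2 and Sall4 differed the other way. Sall2, on chromosome 14 at 52311172 to 52328762, was the most counted member, with at least 2900 counts in a library. It measured 102.3, 106.4, 98.5, 103.4, 105.7, 110.8, 94.9 and 96.1 CPM in upper-labelled germs, in stage order, against 91.95, 92.7, 83.8, 86.9, 80.7, 83.1, 75.5 and 79.7 CPM in lower-labelled germs. The difference was small but left no overlap, since the lowest upper-labelled value, 94.9 CPM, was above the highest lower-labelled value, 92.7 CPM. Sall2 averaged 102.2 ± 5.47 CPM in upper-labelled germs and 84.3 ± 5.95 CPM in lower-labelled germs (SD, n = 8 each), and the fitted log2 difference was 0.29 ± 0.04. Within an individual, upper-labelled germs were 1.11-fold to 1.33-fold above lower-labelled germs.

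Sall4, on chromosome 2 at 168748332 to 168767943, was the least counted member, with 35 to 152 counts in a library. It measured 2.94, 4.25, 2.00, 2.09, 2.48, 2.78, 1.71 and 2.02 CPM in upper-labelled germs and 1.45, 2.24, 1.03, 1.09, 1.0, 1.77, 0.875 and 1.24 CPM in lower-labelled germs, both in stage order. The ranges overlapped, but upper-labelled germs were 1.57-fold to 2.48-fold above lower-labelled germs in each of 8 individuals. Sall4 averaged 2.53 ± 0.81 CPM in upper-labelled germs and 1.34 ± 0.46 CPM in lower-labelled germs (SD, n = 8 each), with a fitted log2 difference of 0.91 ± 0.20. The lowest library, lower-labelled at E17.5, had an exact 95% Poisson interval of 0.609 to 1.22 CPM. An antisense gene model, Gm14261, overlaps Sall4 over 1801 bases, and because the library kit does not mark strand, reads from the pair cannot be told apart there.

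All 4 members had an adjusted p below 0.05 for the tooth label, 2 higher in upper-labelled germs and 2 higher in lower-labelled germs (Benjamini-Hochberg adjusted over all fitted genes, edgeR's quasi-likelihood test). Over all fitted genes 18.1% were called higher in upper-labelled germs and 18.1% higher in lower-labelled germs. The labels did not overlap for 3 of the 4 members. Such a gap was found for 2.89% of all fitted genes with upper-labelled germs higher and for 3.52% with lower-labelled germs higher. Nothing is read from these counts, since the family was chosen by the same values. Each member kept its sign in 8 of 8 individuals, a description only, since the share of all fitted genes that do so was not counted. In bulk germs, fewer cells of a type and less RNA per cell cannot be told apart. Markers of several tissues moved with the labels too. By edgeR's test 4 of 6 dental mesenchyme markers were higher in upper-labelled germs and 0 in lower-labelled germs (median log2 difference 0.66). Of 6 dental epithelium markers, 1 was higher in upper-labelled germs and 2 in lower-labelled germs (median -0.10). Of 5 fitted macrophage markers, 0 were higher in upper-labelled germs and 3 in lower-labelled germs (median -0.51). Summed oral cornifying epithelium markers (4 of 4 genes) were at 94.6 to 506.8 CPM in upper-labelled germs and 181.6 to 1414 CPM in lower-labelled germs. By edgeR's test 2 of these 4 genes, Krt4 and Krt13, were higher in lower-labelled germs. Neuron markers (6 of 6) were mixed. Their summed level was 39.1 to 55.2 CPM in upper-labelled germs and 64.1 to 89.9 CPM in lower-labelled germs. Tubb3 and Stmn2 were higher in lower-labelled germs and Elavl4 in upper-labelled germs, and the median log2 difference was 0.09. That median includes Isl1, with 60 counts in all and at most 0.0898 CPM in lower-labelled libraries. The filter kept Isl1 through upper-labelled libraries alone, so the sign of the median is not read. The part of these marker differences in the Sall differences was not tested.

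**Figure D2:**
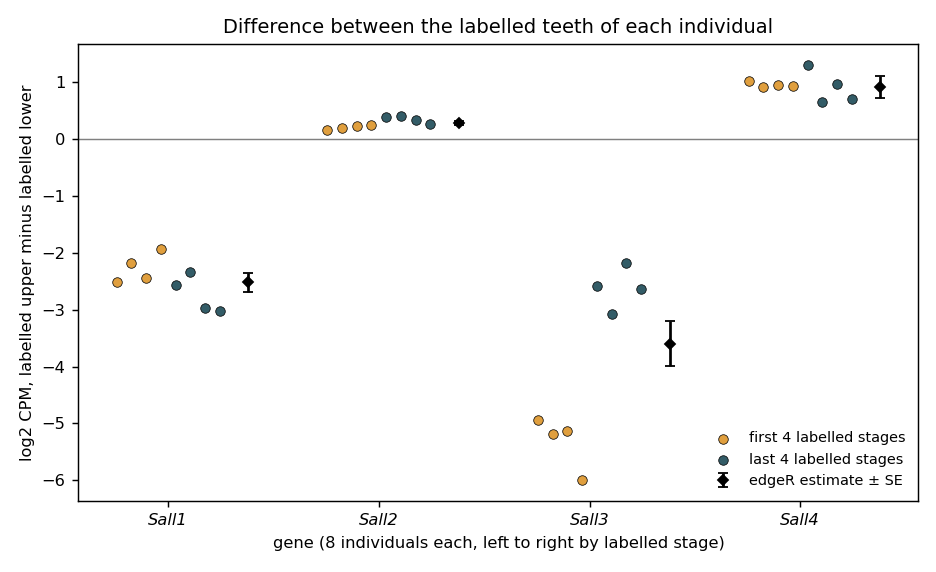
Each point is 1 individual's log2 CPM in upper-labelled germs minus lower-labelled germs, ordered by labelled stage within a gene and coloured by the first or last 4 stages, and the diamonds with bars give the fitted difference ± SE. Sall1 and Sall3 lie below 0 and Sall2 and Sall4 above 0 in all 8 individuals, and the first 4 Sall3 points lie between -6.00 and -4.94.

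Along the labelled stages, Sall1 and Sall3 were higher at later stages in both labels. In upper-labelled libraries, log2 Sall3 increased by 1.39 ± 0.23 per labelled day and log2 Sall1 by 0.48 ± 0.11. In lower-labelled libraries the slopes were 0.41 ± 0.03 for Sall3 and 0.71 ± 0.10 for Sall1. Sall3 in lower-labelled germs was higher at each of 7 steps from a stage to the next, and its last stage was 2.69-fold above its first, while in upper-labelled germs 3 of 7 steps were upward. For Sall1 the last stage was 3.72-fold above the first in upper-labelled germs and 5.33-fold in lower-labelled germs. These 2 genes had an adjusted p below 0.05 in each label (Benjamini-Hochberg adjusted, edgeR's quasi-likelihood test), where 3.72% of all fitted genes were called rising in upper-labelled germs and 2.63% in lower-labelled germs. Nothing is read from these calls either, since the family was chosen by its values along the labelled stages too. Without 1 individual the Sall1 slope in upper-labelled germs was 0.35 to 0.60 and kept its call in 3 of 8 cases, ending without individual 1, 2, 6, 7 or 8. The Sall1 slope in lower-labelled germs lost its call without individual 1.

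The Sall3 increase in upper-labelled germs came mostly at one step. Between E16.0 and E16.5 the level increased 11.4-fold, a step at which 0.596% of fitted genes were at least 8-fold higher, a threshold set with the Sall3 value known. That step coincides with the change of lane. Within lanes, the last stage over the first was 0.745 on the first lane and 1.56 on the second for Sall3 in upper-labelled germs, and 1.55 and 1.63 in lower-labelled germs. With the lane as a term the upper-labelled slope was 0.35 ± 0.26 for Sall3 and 0.66 ± 0.21 for Sall1, and neither passed (edgeR's adjusted p = 0.667 and 0.353). In lower-labelled germs, with that term, Sall3 kept its call at 0.49 ± 0.06 and Sall1, at 0.75 ± 0.22, lost it (edgeR's adjusted p = 0.205). Over all fitted genes, that term left 2 slopes called in upper-labelled germs and 19 in lower-labelled germs. The lane follows the stage within a label, so a lost call does not tell lane and stage apart. Skeletal muscle markers (5 of 5 genes) moved at the same point in upper-labelled germs, with a sum of 2.18 to 4.04 CPM at the first 4 stages and 7.98 to 48.1 CPM at the last 4. Oral cornifying epithelium markers did so too, at 94.6 to 226.3 CPM and 268.8 to 506.8 CPM, and the part of either in the Sall3 step was not tested.

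Sall2 and Sall4 had small slopes that were not called in either label by edgeR's test. Sall2 changed by -0.02 ± 0.02 log2 units per labelled day in upper-labelled germs and by -0.07 ± 0.02 in lower-labelled germs. The lower-labelled Sall2 slope was called with DESeq2 (adjusted p = 0.00914) and with a term for alternating stages (edgeR's adjusted p = 0.0152). Sall4 changed by -0.22 ± 0.10 in upper-labelled germs and by -0.15 ± 0.13 in lower-labelled germs, and without individual 2 these slopes were -0.12 and -0.028. Falling genes made up 2.41% of all fitted genes in upper-labelled germs and 1.49% in lower-labelled germs by edgeR's test. For Sall4 the 12-hour step with the largest change was from E15.0 to E15.5 in both labels, to 0.469 of the earlier value in upper-labelled germs and to 0.461 in lower-labelled germs.

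**Figure D3:**
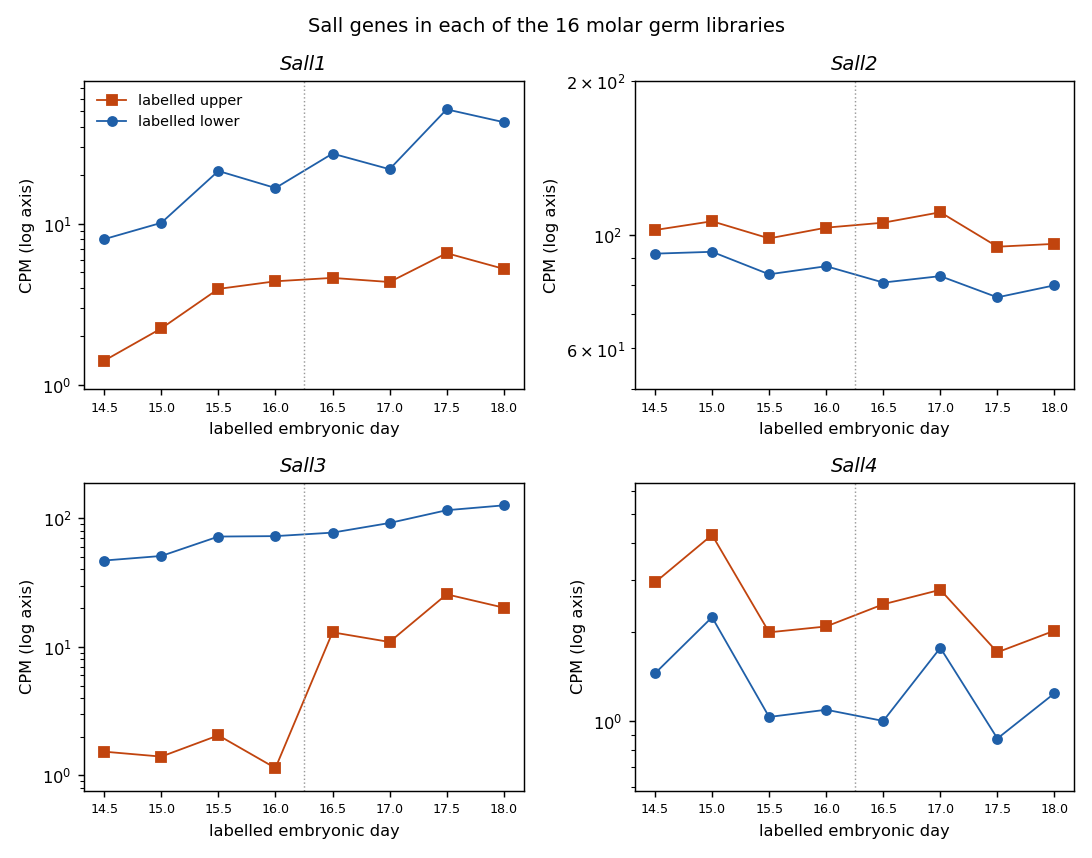
CPM of each Sall gene on a log axis against labelled embryonic day, with squares for the 8 upper-labelled libraries, circles for the 8 lower-labelled ones, and a dotted line where the sequencing lane changes within both labels. Sall3 in upper-labelled germs lies at 1.14 to 2.05 CPM before that line and 10.9 to 25.6 CPM after it, and Sall2 stays between 75.5 and 110.8 CPM throughout.

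The difference between the slopes, upper-labelled germs minus lower-labelled germs, was 0.99 ± 0.22 log2 units per labelled day for Sall3. Its adjusted p, 0.0508, was above the threshold of 0.05, and with the individual as a block it was 0.98 ± 0.22 with an adjusted p of 0.0463 (Benjamini-Hochberg adjusted, edgeR's quasi-likelihood test). Of all fitted genes, 1.28% were called for this difference. For Sall1 the difference was -0.22 ± 0.14, for Sall2 0.05 ± 0.03 and for Sall4 -0.07 ± 0.18, none of them called. In the main fit no member was called for a difference of slope between the labels, and without 1 individual Sall3 was called in 1 of 8 cases. Nothing is read from these calls, since the family was chosen by its values along the tooth labels and the labelled stages.

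The alternation seen in Pou3f3 was weak in the Sall genes and differed among them. Each whole-day stage was set against the half-day stage before it, which gives 4 pairs in each label. Sall4 was higher at the whole-day stage in 4 of 4 pairs of both labels, by 1.05-fold to 1.45-fold in upper-labelled germs and 1.06-fold to 1.76-fold in lower-labelled germs. Sall2 was also higher in 4 of 4 pairs of both labels, but only by 1.01-fold to 1.05-fold in upper-labelled germs and 1.01-fold to 1.06-fold in lower-labelled germs. Among all fitted genes, 9.82% were higher at the whole-day stage in every such pair. The counting error alone is 16.9% of the value for the lowest Sall4 library and 1.86% for the lowest Sall2 library, so the smallest of these steps lie within counting error.

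Sall3 went opposite ways in the labels at these pairs. In upper-labelled germs it was lower at the whole-day stage in 4 of 4 pairs, at 0.556 to 0.915 of the half-day value, and in lower-labelled germs it was higher in 4 of 4, by 1.01-fold to 1.19-fold. In lower-labelled germs that is also the direction of its change with stage. Sall1 was higher at the whole-day stage in 2 of 4 pairs in upper-labelled germs and in 1 of 4 in lower-labelled germs. The log2 difference of mean CPM, whole-day minus half-day stages, was 0.29 in upper-labelled germs and 0.54 in lower-labelled germs for Sall4. Without individual 2, at E15.0, these were 0.0090 in upper-labelled germs and 0.33 in lower-labelled germs. No member separated the whole-day from the half-day stages without overlap, whereas 2.33% of all fitted genes did so in both labels.

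**Figure D4:**
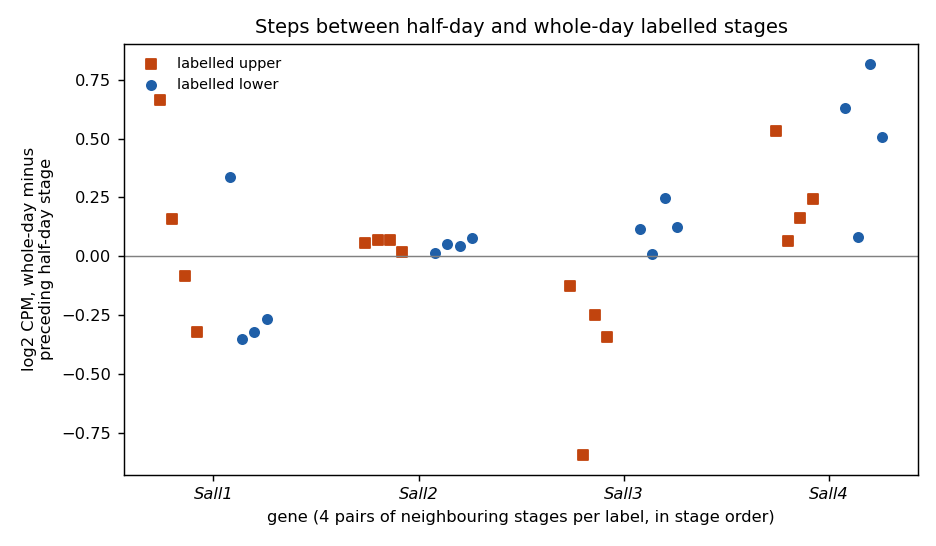
Each point is the log2 CPM of a whole-day stage minus that of the half-day stage before it, with 4 pairs per gene and label in stage order, squares for upper-labelled germs and circles for lower-labelled germs. All 8 Sall4 points and all 8 Sall2 points lie above 0, and the Sall3 points lie below 0 in upper-labelled germs and above 0 in lower-labelled germs.

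The levels of Sall1 and Sall3 in the earliest lower-labelled germs lay above those of the latest upper-labelled germs, so the upper-labelled stages followed by the lower-labelled stages were also read end to end. Steps were taken within the whole-day stages and within the half-day stages, 7 in each set and 14 in all. Sall1 and Sall3 each increased at 13 of 14 of these steps, 6 of 7 among whole-day and 7 of 7 among half-day stages. At the join, Sall3 in lower-labelled germs at E15.0 was 2.52-fold above upper-labelled germs at E18.0, and at E14.5 it was 1.83-fold above upper-labelled germs at E17.5. For Sall1 these folds were 1.93 and 1.22. Sall2 decreased at 12 of 14 steps and Sall4 at 10 of 14. At least 12 upward steps were found in 2.08% of fitted genes and at least 12 downward steps in 0.97%. This order and its minimum of 12 were chosen with the values known. What sets the order of the libraries was not tested, and no library was moved to another group.

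Genes with the pattern most like each member over the 16 libraries were ranked by Pearson's r of log2(CPM + 0.25), among 12473 genes with a mean count of at least 50. The libraries share label, flow cell, lane and alternation, so these r values describe likeness only. For Sall3 the 5 most alike were Itga2 (r = 0.986), Dlx4 (0.983), Sp9 (0.983), Moxd1 (0.982) and Kremen1 (0.982). Itga2 encodes an integrin subunit, Dlx4 and Sp9 are transcription factor genes, and Kremen1 encodes a receptor for the Wnt inhibitor Dickkopf. Sp9 measured 0.476 to 17.8 CPM in upper-labelled germs and 23.2 to 49.0 CPM in lower-labelled germs. For Sall1 they were Dync1i1 (r = 0.983), Snap91 (0.983), Lrrc16a (0.977), Fam120a (0.977) and Elmod1 (0.977). Dync1i1 encodes a dynein intermediate chain, and measured 5.09 to 7.87 CPM in upper-labelled germs and 9.37 to 17.52 CPM in lower-labelled germs.

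For Sall2 the most alike were Alcam (r = 0.965), Atp7b (0.965), Adam11 (0.964), Lrrc7 (0.961) and Igf2bp2 (0.961). Alcam, a cell adhesion molecule, measured 276.9 to 381.3 CPM in upper-labelled germs and 123.2 to 246.1 CPM in lower-labelled germs. For Sall4 they included Syt1 (r = 0.942), Add1 (0.937), Sema6a (0.931) and Tmcc2 (0.930). Sema6a, a membrane semaphorin, measured 90.7 to 160.5 CPM in upper-labelled germs and 55.2 to 89.7 CPM in lower-labelled germs. Within the family, r was 0.890 between Sall1 and Sall3 and 0.878 between Sall2 and Sall4. Every pair across those 2 couples had a negative r, which reached -0.934 between Sall1 and Sall2 and was -0.777 between Sall3 and Sall4.

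Genes whose products act with Sall proteins elsewhere differed between the labels in several ways. In sentences on these genes, log2 values are upper-labelled germs minus lower-labelled germs, and adjusted p-values come from edgeR's quasi-likelihood test, Benjamini-Hochberg adjusted. The median over all fitted genes was 0.01, and 18.1% of them were called higher in upper-labelled germs and 18.1% in lower-labelled germs, the shares against which each count of list genes is to be read. Of 13 NuRD complex genes, 3 were higher in upper-labelled germs and 2 in lower-labelled germs, counts near those shares, with a median of 0.06 over the list. Over the alternatives run these counts were 1 to 5 and 0 to 2, and they were 1 and 1 without individual 3 and 1 and 2 without individual 5. Chd3, a remodelling ATPase, differed by 0.21 ± 0.03 (adjusted p = 0.000196), Mbd2, a methyl-CpG binding protein, by -0.30 ± 0.07 (0.00315), Gatad2a by 0.15 ± 0.05 (0.026) and Mta3 by -0.08 ± 0.03 (0.0265). Gatad2a lost its call without individual 3, 4 or 5 and Mta3 without individual 1, 2 or 3, and both lost it when only the first or the last 4 stages were fitted. Mbd2 was not called over the first 4 stages alone. Summed NuRD levels were 3364 to 3526 CPM in upper-labelled germs and 3156 to 3410 CPM in lower-labelled germs.

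Some genes of the Eya, Dach and sine oculis homeobox families work with Sall1 in the mouse kidney. Of 10 genes of these families, 7 were higher in upper-labelled germs and 1 in lower-labelled germs, where 18.1% of all fitted genes were called each way. The list median was 0.27, and over the 4 latest stages alone 4 and 1 of the 10 genes were called. Eya1 differed by 1.28 ± 0.23 (edgeR's adjusted p = 0.000755), Eya4 by 1.20 ± 0.17 (0.000104) and Dach1 by -0.80 ± 0.12 (0.000199). Eya1, a phosphatase and co-activator of sine oculis homeobox factors, measured 24.1 to 87.6 CPM in upper-labelled libraries. Dach1 encodes a co-repressor, and Dach2, at -0.43 ± 0.17, was not called (edgeR's adjusted p = 0.0668). Of 12 fitted genes among 13 limb bud partners and targets, 4 were higher in upper-labelled germs and 4 in lower-labelled germs. The list median was 0.14, and 18.1% of all fitted genes were called in each direction. That median includes Fgf8, which had 97 counts in all and was not called. Fgf8 reached at most 0.2686 CPM in lower-labelled libraries, below the minimum of 0.2691 CPM, so the filter kept it through upper-labelled libraries alone. Gli3, a Hedgehog pathway repressor, differed by 0.65 ± 0.09 (edgeR's adjusted p = 0.000106), Ptch1, a Hedgehog receptor, by -0.52 ± 0.07 (7.86e-05) and Tbx4, a T-box factor of the hind limb, by 1.52 ± 0.24 (0.000279). Tbx4 lay near the filter minimum, with 304 counts in all. It measured 0.483 to 0.985 CPM in upper-labelled germs and 0.0793 to 0.564 CPM in lower-labelled germs. Tbx5, which acts with Sall4 in the mouse forelimb, did not pass the filter.

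Pluripotency genes that act with Sall4 in embryonic stem cells differed in the same direction as Sall4 where they were called. Of 8 listed genes 5 were fitted, and 3 of them were higher in upper-labelled germs and 0 in lower-labelled germs. Over all fitted genes 18.1% were called in each direction. The list median, 1.34, was the value of Zfp42, which had 75 counts in all and was not called (edgeR's adjusted p = 0.0984). Zfp42 reached at most 0.156 CPM in lower-labelled libraries, below the minimum of 0.269 CPM, so the filter kept it through upper-labelled libraries alone. Sox2, a transcription factor of stem and oral epithelial cells, differed by 1.99 ± 0.24 (edgeR's adjusted p = 2.60e-05), Lin28b, an inhibitor of let-7 processing, by 1.65 ± 0.23 (9.85e-05) and Tfap2c by 0.73 ± 0.09 (2.22e-05). Lin28b was low, with 543 counts in all, at 0.701 to 2.06 CPM in upper-labelled germs and 0.150 to 0.752 CPM in lower-labelled germs. Pou5f1 reached at most 0.0603 CPM in upper-labelled libraries and was not fitted. Of the 5 genes of the cereblon ligase, Cul4b differed by -0.19 ± 0.04 (edgeR's adjusted p = 0.00149) and the other 4 did not pass. Cul4b was not called over the last 4 stages alone. Crbn itself differed by 0.02 ± 0.04.

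Of the 45 fitted genes of these lists, 4 were called for a stage slope in upper-labelled germs and 5 in lower-labelled germs. That is 8.89% and 11.1% of them, against 6.13% and 4.11% of all fitted genes. In upper-labelled libraries, Fgf10 increased by 0.21 ± 0.04 log2 units per labelled day, and Tfap2c, Sox2 and Hdac1 changed by -0.32 ± 0.05, -0.37 ± 0.08 and -0.07 ± 0.02. In lower-labelled libraries, Dach1 and Tbx3 increased by 0.15 ± 0.03 and 0.14 ± 0.02, and Gli3, Tfap2c and Hdac2 changed by -0.17 ± 0.04, -0.16 ± 0.03 and -0.08 ± 0.01. All 9 slopes passed edgeR's quasi-likelihood test, Benjamini-Hochberg adjusted, and with the lane as a term none of them did. Each of the 9 also lost its call without at least 1 individual.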

How the data were processed

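The authors deposited whole-number read counts per gene symbol for each library, without normalization. The build mm10 and the tools HTSeq 0.5.3p9, TopHat2 2.0.6 and Bowtie2 2.0.2 come from the submitters' processing notes. Annotation and strand setting were not given in the sources used here. Per the labels' protocols, poly(A) libraries came from a kit that does not mark strand. Each library held 23337 genes, and 12.6% to 15.1% of counts on no feature and 0.955% to 1.15% ambiguous ones stayed out of totals and tests. At the depths reported, 10 counts equal 0.269 CPM at the median.

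Genes at 0.269 CPM in at least 2 libraries (16287) were fitted with edgeR 4.0.16 in R 4.3.3 (TMM factors 0.982 to 1.01, quasi-likelihood F test, Benjamini-Hochberg threshold 0.05). The tooth label was fitted with a natural spline of stage of 3 degrees of freedom, slopes within each label, and the slope difference over all 16 libraries. The standard error is the log2 value divided by the square root of F. With 1 library per label and stage, p-values rest on the scatter of libraries about these curves. Individual and stage cannot be told apart, so that scatter also holds the alternation of stages, the lane step and misfit of the curves. The main tooth fit treated the 16 libraries as independent, though both labels of a stage came from 1 individual. The scripts were tested on simulated counts.

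Members, lists and tests were chosen with earlier results of these data known. The named genes were the 4 members, the 5 most similar genes of each, and the 3 or 4 list genes with the smallest p, with Pou3f3, Nkx2-3 and Xist as label checks, and 2 genes this rule selects are not reported here. Genes named for a stage slope, marker genes, Crbn, Dach2, Tbx5, Fgf8, Zfp42 and Pou5f1 were chosen after their values were seen. Upper and lower libraries of a stage are paired by the labels, as 1 individual. Their residuals about the fit correlated at -0.757 to 0.135, and the individual as a block was an alternative, beside DESeq2 1.42.0 with its size factors, no filter, a term for alternating stages, leaving out each individual and, chosen after seeing the data, a lane term and the first or last 4 stages.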

Additional observations from a re-analysis of the deposited data

How the results depend on the processing

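The tooth differences of the 4 members kept their call under all alternatives run. Because the family was chosen by these same values, this shows only that the calls did not turn on a setting. Leaving out 1 individual gave -2.61 to -2.44 for Sall1, 0.26 to 0.30 for Sall2, -3.85 to -3.40 for Sall3 and 0.86 to 0.97 for Sall4. The Sall1 slope was 0.35 to 0.60 in upper-labelled germs and 0.62 to 0.78 in lower-labelled germs without 1 individual, and the Sall3 slope difference 0.90 to 1.17, called without individual 4 alone. The lane term ended the call of the slopes of Sall1 in upper-labelled germs (0.66) and lower-labelled germs (0.75) and of Sall3 in upper-labelled germs (0.35). The Sall2 slope in lower-labelled germs passed with DESeq2, at a value of -0.068 (adjusted p = 0.00914), and with a term for alternating stages, at -0.076 (edgeR's adjusted p = 0.0152). The Sall3 slope difference passed with DESeq2 (0.97), the alternating term (0.98) and the individual as a replicate block (0.98, edgeR's adjusted p = 0.0463), and the block changed no other member's call. The cause of these changes was not tested.

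Over all fitted genes, 5902 were called for the tooth label (3144 with the 4 latest stages alone, 4847 to 5534 without 1 individual), 999 for the slope in upper-labelled germs, 670 for that in lower-labelled germs and 209 for the slope difference. DESeq2 gave 2051, 1784 and 599 for these last 3, and the alternating term 2152, 1789 and 673. The lane term left 2 in upper-labelled germs and 19 in lower-labelled germs, and the block gave 475 slope differences. Without 1 individual the 3 counts were 192 to 1401, 34 to 758 and 14 to 136. With Spearman's rho, 1 of the 5 most similar genes was shared for Sall1 and 2 each for Sall2, Sall3 and Sall4, and with TMM-scaled CPM 3 for Sall4. No called result changed sign. The whole-day minus half-day differences, which have no test, were 0.0090 to 0.43 in upper-labelled and 0.33 to 0.71 in lower-labelled germs for Sall4 and changed sign without single individuals for Sall1 (-0.31 to 0.29 in upper-labelled and -0.74 to 0.28 in lower-labelled germs) and Sall3 (-1.23 to 0.61 in upper-labelled and -0.12 to 0.38 in lower-labelled germs). Counting error limits Sall4, and Sall1 and Sall3 in upper-labelled germs at the early stages, while 1 library per label and stage limits every comparison of single stages.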
